A study of Mus musculus with 5 samples.

Results

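Dppa2, Dppa3, Dppa4, Dppa5a, L1td1, and Fbxo15 are 6 genes that mark undifferentiated mouse cells, and they were followed here by symbol through all 5 RNA-seq libraries of the study. The members were listed by name, and all 6 were found among the 24421 genes of both deposited tables. Each library was the only one of its condition. MEFs were fibroblasts grown from embryos of CF-1 mice, without treatment, and served as the somatic cells. The iPSCs and the mESCs, untreated V6.5 cells, were, per the labels, grown without feeder cells in medium with LIF, which keeps mouse stem cells undifferentiated. A further pair of libraries came from V6.5 cells that carried either a nontargeting control shRNA (NTC) or an shRNA against Gldc (shGldc), the decarboxylase of the glycine cleavage system. The shRNAs came in the pLKO vector, and the sources used here do not say whether a population or a clone was sequenced. The deposited column of the knockdown is headed sh3, whereas the shRNA list of the study names its mouse Gldc hairpins sh1 and sh2, so the hairpin could not be matched to its sequence. Gldc itself was at 74.7 FPKM with the NTC and 2.07 FPKM with its shRNA. FPKM scales the fragments of a gene to its transcript length and to 1000000 mapped fragments, so levels of genes of unequal length can be set beside each other.

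The Dppa genes take their name from developmental pluripotency associated transcripts, which were found through their restriction to the early embryo, germ cells, and embryonic stem cells. They are not one sequence family. Dppa2 and Dppa4 encode SAP domain proteins that bind chromatin as a pair, occupy CpG-rich promoters, and act upstream of genes of the 2-cell embryo. Dppa3, also named Stella, is a maternal and germ cell factor that shields DNA methylation in the zygote and restrains Uhrf1, the partner of the maintenance methyltransferase. Dppa5a, also named Esg1, encodes a small protein with a KH domain, a fold that binds RNA. L1td1 encodes an RNA-binding protein domesticated from the first open reading frame of a LINE-1 transposon. Fbxo15 encodes an F-box protein, the substrate-binding kind of subunit in SCF ubiquitin ligases, and its locus was the drug selection reporter of the first iPSC experiments.

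With 1 library per condition, no difference between conditions has a replicate check and no p-value is given. Ratios were taken as differences of log2(FPKM + 0.1) and read against all genes that reached 1 FPKM in one or both libraries of a pair, and a gene was called higher or lower at 2-fold. The sums of FPKM ranged from 466650 in MEFs to 576470 in iPSCs. Low values pointed to 22100000 to 24700000 fragments for the libraries of MEFs, iPSCs, and mESCs, and less clearly to 14500000 for NTC cells and 28800000 for shGldc cells, which are in a separate table. In each of the 5 libraries the next-best estimate lay a factor of 2 away, so fragment numbers, floors, and counting errors below carry that uncertainty. The 7 pluripotency markers examined, such as Pou5f1 and Nanog, summed to between 1961 and 2877 FPKM in the 4 pluripotent libraries and to 1.73 FPKM in MEFs, and each of the 7 had a lower value with the Gldc shRNA than with the NTC, at a median log2 ratio of -0.72. The 7 fibroblast markers summed to an FPKM of 8121 in MEFs and to between 96.0 and 165.5 in the others. Fewer expressing cells and less RNA per cell cannot be told apart in these bulk libraries.

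Dppa5a was by far the most abundant of the 6 genes. Its FPKM was 1.55 in MEFs, 4146 in mESCs, 3162 in iPSCs, 1440 in NTC cells, and 1792 in shGldc cells. In mESCs only 6 genes of the whole table had a higher value, and Dppa5a was number 18 in iPSCs, number 49 with the NTC, and number 36 with the Gldc shRNA. It accounted for 84.0% to 93.5% of the summed FPKM of the 6 genes in the pluripotent libraries, and together the 6 genes held 0.825% of all FPKM in mESCs but 0.324% in NTC cells. Its MEF value corresponds to about 23.6 fragments, so the fold over MEFs, 2679 in mESCs and 2043 in iPSCs, carries a counting error of 0.30 on the log2 scale. This error leaves out reads that may be shared with other genes.

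Part of the Dppa5a transcript sequence is shared with copies of the gene. Dppa5a lies on the minus strand of chromosome 9 (mm10) from 78367052 to 78368177 and has 1 annotated transcript of 619 nt. Cut into all stretches of 50 nt, 38.6% of the transcript recurs in 9 more annotated genes, 7 of them pseudogenes, of which only Gm6083 and Pigp are rows of the deposited tables. Gm6083 is a copy of the coding sequence on chromosome 5 that matches Dppa5a at 96.9% of 357 aligned bases. The first 60 bases of the coding sequence of Dppa5a (chr9:78368040-78368099, minus strand) and their counterpart in Gm6083 (chr5:29538153-29538212, plus strand) are shown because a read from such a stretch fits both with few mismatches. Capitals mark the 3 positions at which they differ.
Dppa5a: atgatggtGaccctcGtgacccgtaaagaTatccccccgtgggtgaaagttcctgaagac
Gm6083: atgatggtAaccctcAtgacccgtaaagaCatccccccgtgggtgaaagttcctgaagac
Gm6083 was listed at 0 in MEFs and at an FPKM of at most 0.388, the value in mESCs, elsewhere. Pigp, a protein-coding gene on chromosome 16 that shares 12.3% of the stretches, against 11.6% for Gm6083, was at 7.33 in MEFs and between 3.20 and 6.24 in the pluripotent libraries. How the authors' counting divided shared reads is not stated in the sources used here, so the absolute level of Dppa5a is uncertain. The same holds for its fold over MEFs, where Dppa5a was low and Pigp was at a higher FPKM.

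Dppa2 and Dppa4 are neighbours on the plus strand of chromosome 16, with Dppa4 at 48283733 to 48294237 and Dppa2 at 48303908 to 48319723, 9671 bp apart. Dppa2 was listed at 0 in MEFs, and its FPKM was 72.0 in mESCs, 48.2 in iPSCs, 71.5 in NTC cells, and 131.3 in shGldc cells. Dppa4 was at 0.0606 in MEFs, about 2 fragments, at 92.5 in mESCs, 63.0 in iPSCs, 91.9 in NTC cells, and 78.6 in shGldc cells. The ratio of Dppa2 to Dppa4 within a library was therefore nearly constant in 3 libraries, at 0.778 in mESCs, 0.765 in iPSCs, and 0.778 in NTC cells, a range of 0.02 on the log2 scale. In shGldc cells it was 1.67, so that Dppa2 was the more abundant of the pair in that library and in no other. Both genes share sequence with processed pseudogenes, 29.1% of the 50-nt stretches of Dppa2 and 31.3% of those of Dppa4, and none of these pseudogenes is a row of the deposited tables.

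Dppa3 varied most among the pluripotent libraries. It was listed at 0 in MEFs, where 3 fragments would have given an FPKM of 0.146, and it was at 60.6 in mESCs, 14.4 in iPSCs, 11.7 in NTC cells, and 20.3 in shGldc cells. The mESC library thus stood above the other 3, and the highest and the lowest of these values differ 5.17-fold. Dppa3 lies on chromosome 6 from 122626410 to 122630272, with Gdf3, a TGF-beta family ligand, 16323 bp to one side and Nanog, a core pluripotency factor, 77217 bp to the other. These neighbours did not show the same order. Gdf3 was at 44.8 in mESCs, 21.8 in iPSCs, 52.9 in NTC cells, and 73.3 in shGldc cells. Nanog was at 263.2, 190.3, 249.5, and 222.9 in the same libraries. Of the 50-nt stretches of Dppa3, 16.5% also occur elsewhere, mainly in the pseudogene Dppa3-ps on the X chromosome.

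L1td1 was the steadiest member after Dppa4. Its FPKM was 0.0345 in MEFs, at most about 2.5 fragments, 63.0 in mESCs, 41.5 in iPSCs, 52.3 in NTC cells, and 41.6 in shGldc cells, so that the highest and the lowest pluripotent library differed 1.52-fold. Of its 50-nt stretches, 1.44% are shared with another annotated gene. L1td1 lies on chromosome 4 from 98726734 to 98738480 and was the only 1 of the 6 genes with an entry in the promoter table used. Dppa2, Dppa3, Dppa4, Dppa5a, and Fbxo15 had none.

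The L1td1 promoter is shown because its gene was near 0 in MEFs and expressed in all 4 pluripotent libraries. The 300 bases run from 250 before to 50 after the RefSeq start site (GRCm38.p6, chr4:98726504-98726803, plus strand). Capitals mark the only match found among 5 motifs chosen after the sequence was seen and searched on both strands, namely the octamer ATGCAAAT of POU factors, the Sox motif CATTGT, the Klf motif GGGCGTGG, the GC box GGGCGG, and the TATA motif TATAAA.
L1td1 promoter: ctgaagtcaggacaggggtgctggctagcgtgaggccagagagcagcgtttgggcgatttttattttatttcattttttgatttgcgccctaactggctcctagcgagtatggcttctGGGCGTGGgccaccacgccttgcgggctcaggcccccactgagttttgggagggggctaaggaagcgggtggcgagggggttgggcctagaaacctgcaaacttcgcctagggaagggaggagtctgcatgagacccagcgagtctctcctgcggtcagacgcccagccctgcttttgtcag
The Klf motif is held by 5.33% of the 32851 promoters in the table, the octamer by 1.74%, the Sox motif by 12.6%, the GC box by 35.7%, and the TATA motif by 13.6%. The L1td1 window has 14 CpG dinucleotides against a median of 7 over all promoters, and a GC content of 58.7% against 52.7%. These matches describe the letters of the window and say nothing of binding.

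Fbxo15 resembled Dppa3 in its order across libraries. It was at an FPKM of 0.0737 in MEFs, at most about 3.46 fragments, 110.1 in mESCs, 51.9 in iPSCs, 41.2 in NTC cells, and 70.5 in shGldc cells. The ratio of Dppa3 to Fbxo15 was 0.551 in mESCs, whereas it was 0.278 in iPSCs, 0.285 in NTC cells, and 0.288 in shGldc cells. F-box genes were taken by symbol, as those named Fbxl, Fbxo, or Fbxw with a number, so F-box genes under other names are left out. Among these 77 genes, itself included, Fbxo15 was number 57 in MEFs and the most abundant in mESCs and iPSCs. It was number 2 with the Gldc shRNA, after Fbxw9, and number 5 with the NTC. The other genes of this list had a median FPKM between 3.65 and 5.16 across the 5 libraries. The 6 genes of the SCF core that were listed, such as Skp1a and Cul1, were expressed in MEFs as well, with a sum of 473.5 there and between 543.4 and 666.2 in the pluripotent libraries. None of the 50-nt stretches of Fbxo15 was shared, but Timm21 lies within the gene and was between 2.65 and 6.84 in FPKM.

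**Figure D1:**
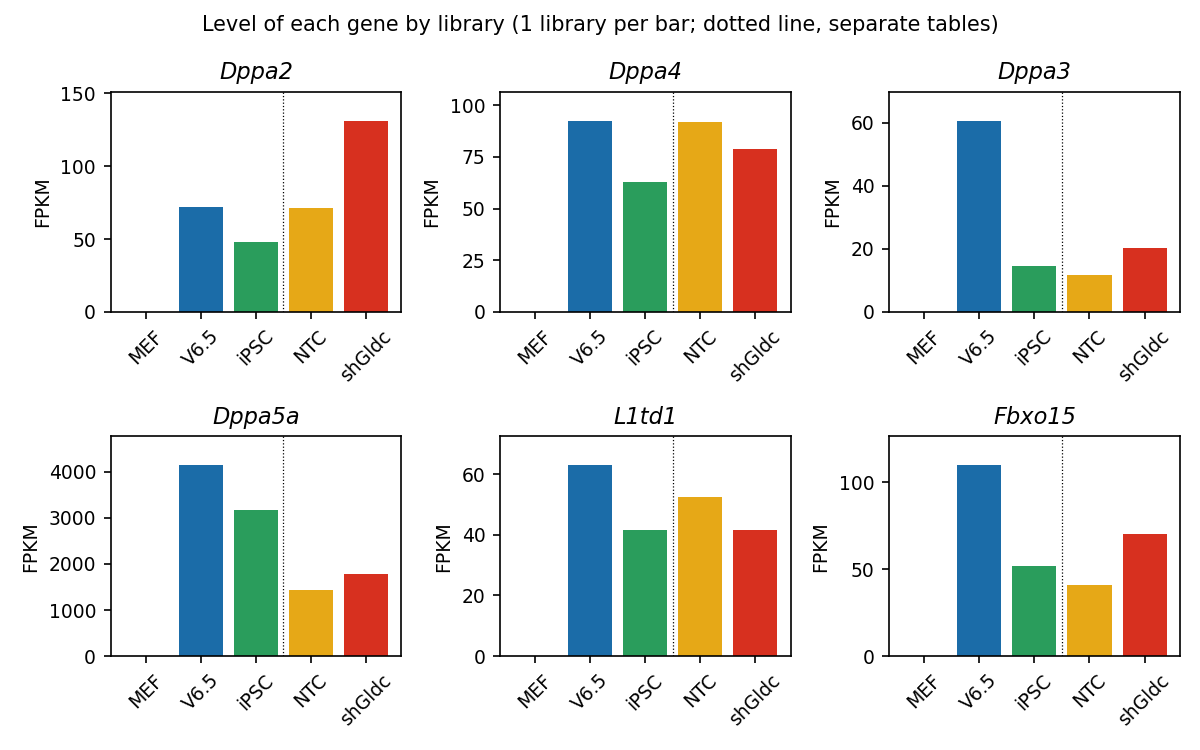
FPKM of the 6 genes in the libraries of MEFs, V6.5 cells (mESCs), iPSCs, NTC cells, and shGldc cells, with 1 library per bar and an axis from 0 in each panel. The MEF bars are at or near 0, 5 of the 6 genes are highest in V6.5 cells, and Dppa2 is highest in shGldc cells at 131.3.

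All 6 genes were higher in mESCs and in iPSCs than in MEFs. They were chosen as marks of undifferentiated cells and with earlier results of these data known, so this count is no independent result. Beside this count of 6 of 6, 30.3% of 12840 genes were called higher and 23.3% lower in mESCs, and 31.5% of 13032 genes were called higher and 21.3% lower in iPSCs. On the log2(FPKM + 0.1) scale, the ratios to MEFs ran from 8.87 (L1td1) to 11.30 (Dppa5a) in mESCs, with a median of 9.28 against 0.25 for all genes. In iPSCs they ran from 7.18 (Dppa3) to 10.91 (Dppa5a), with a median of 8.45 against 0.31. Among all genes ranked from the highest ratio, the members held numbers 2 to 27 in mESCs and numbers 2 to 109 in iPSCs. Since 5 of the 6 genes were at or under about 3.5 fragments in MEFs, the size of these ratios and the order of the genes rest on the pseudocount. With every MEF value raised to at least 3 fragments, the medians of the log2 ratios of FPKM were 10.52 and 9.75 by the longest coding transcript of each gene. By the shortest they were 9.52 and 8.71. For comparison, a list of 18 candidate factors of the first iPSC screen, with Pou5f1, Sox2, and Klf4 but none of the 6 genes, had 17 in the tables. Of these 17, 12 were called higher in mESCs and 14 in iPSCs, from Pou5f1 at 11.33 and 11.22 down to Myc at -3.83 and -2.74.

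All 6 genes were lower in iPSCs than in mESCs, with a median log2 ratio of -0.59 against 0.04 for all 12323 genes. Of the 6, 2 were called lower and none higher, where 7.44% of all genes were called lower and 10.1% higher. Dppa3 was 4.20-fold lower, with a log2 ratio of -2.06 and a counting error of 0.10, and 1.45% of all genes had a lower ratio. Fbxo15 was 2.12-fold lower. Dppa2, Dppa4, and L1td1 lay close together, between 1.47-fold and 1.52-fold lower, and Dppa5a was 1.31-fold lower. The 7 pluripotency markers had a median log2 ratio of -0.25 in the same comparison, and the 14 housekeeping genes one of -0.36, so the smaller of these differences are of the size seen in genes that all cells express. Some of the 7 fibroblast markers also differed here, with Col1a1, Col1a2, and Col3a1 called lower in iPSCs (Col1a1 at 1.68 FPKM against 20.5 FPKM), Twist1 called higher at a log2 ratio of 2.05, and sums over the list of 98.0 FPKM in iPSCs and 165.5 FPKM in mESCs. Their part in the members' differences was not tested.

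The libraries of mESCs and NTC cells are both V6.5 cells, one untreated and one with the control shRNA, but their values come from separately made tables, so a difference between the tables cannot be told apart from one between the cells. Dppa2 and Dppa4 were at 0.994-fold each in NTC cells relative to mESCs, log2 ratios of -0.01, which became 0.06 when the ratios were centred on the median of all genes, and 0.05 when the libraries were rescaled to one sum. L1td1 was at 0.83-fold. By contrast, Dppa3 was 5.17-fold lower in NTC cells, Dppa5a 2.88-fold lower, and Fbxo15 2.67-fold lower. These 3 of 6 members were called lower and none higher, where 10.3% of 12048 genes were called lower and 4.99% higher. The median log2 ratio was -0.84 for the members and -0.06 for all genes. Of the 7 fibroblast markers, the collagens Col1a1, Col1a2, and Col3a1 were called lower in NTC cells, with Col1a1 at 1.24 FPKM against 20.5 FPKM in mESCs. The other 4 lay between -0.38 (Twist1) and 0.30 (Thy1) on the log2 scale, and Fn1, which held most of the summed marker level of 165.5 FPKM in mESCs and 125.5 FPKM in NTC cells, was at -0.04. The part of these markers in the members' differences was not tested.

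Knockdown of Gldc was compared with the NTC within 1 table, and no member reached 2-fold in either direction, where 8.97% of 11969 genes were called higher and 7.68% lower. Dppa2 was 1.84-fold higher in shGldc cells, a log2 ratio of 0.87 with a counting error of 0.04, and 89.4% of all genes had a lower ratio. Dppa3 was 1.73-fold higher, with a log2 ratio of 0.78 and a counting error of 0.15, and Fbxo15 was 1.71-fold higher, with a log2 ratio of 0.77. Dppa5a was 1.24-fold higher. Dppa4 and L1td1 were lower, at 0.855-fold and 0.795-fold, with log2 ratios of -0.23 and -0.33. A pseudocount cannot change the sign of a ratio, and rescaling or centring moved these ratios little, as for Dppa4 from -0.23 to -0.26. That the 4 positive and the 2 negative ratios kept their signs is therefore no check of their directions. The middle range of all genes, from the first to the third quartile, ran from -0.32 to 0.40, so Dppa2, Dppa3, and Fbxo15 lay above it, L1td1 just below it, and Dppa4 and Dppa5a within it. Of the 5 fibroblast markers that reached 1 FPKM in this pair, 2 were called lower, Col1a1 and Thy1, and none higher, and their part was not tested either.

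Against untreated V6.5 cells in place of the NTC, a comparison that crosses the tables, the same shGldc library gave other directions for 3 of the 6 genes. Dppa2 was again higher, 1.82-fold. Dppa3 was then lower, at 0.334-fold, Dppa5a at 0.432-fold, Fbxo15 at 0.64-fold, L1td1 at 0.66-fold, and Dppa4 at 0.85-fold. Thus, Dppa2 was higher in shGldc cells relative to either control, Dppa4 and L1td1 were lower relative to either, and for Dppa3, Dppa5a, and Fbxo15 the shGldc value lay between the NTC and the untreated value. The comparisons of NTC with untreated cells and of shGldc with NTC cells share the NTC library, so an unusual value in that library would show in both with opposite signs.

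**Figure D2:**
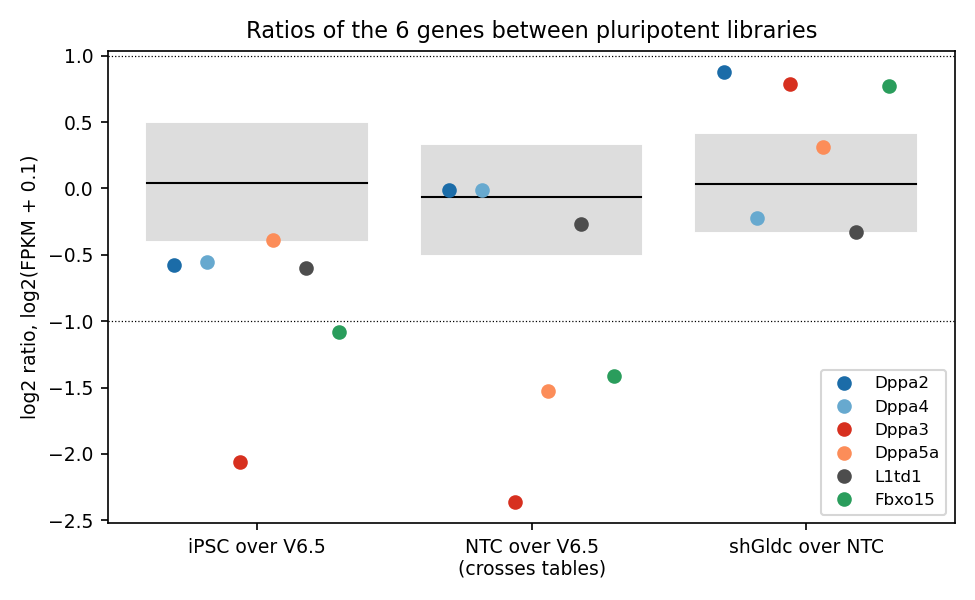
Differences of log2(FPKM + 0.1) of the 6 genes (points) in 3 pairs of pluripotent libraries; grey boxes span the first to the third quartile of all genes, black lines are their medians, and dotted lines mark 2-fold. All 6 points are below 0 for iPSCs over V6.5 cells, 3 lie below the lower dotted line for NTC over V6.5 cells, and none reaches a dotted line for shGldc over NTC.

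Over the 4 pluripotent libraries, which come from separately made tables, Dppa4 and L1td1 had narrower ranges than the other members. Over the 10172 genes that reached 1 FPKM in all 4 libraries, the highest and the lowest value of a gene differed by a median of 0.82 on the log2 scale. This range was 0.55 for Dppa4 and 0.60 for L1td1, and 25.9% and 30.4% of genes had a smaller one. It was 1.42 for Fbxo15, 1.45 for Dppa2, 1.53 for Dppa5a, and 2.37 for Dppa3, and 96.4% of genes had a smaller range than Dppa3. For these genes the highest and the lowest value lay in separate tables, so a difference between the tables can be part of their ranges. Within a table, the log2 ratios of Dppa5a were smaller, at -0.39 for iPSCs over mESCs and 0.32 for shGldc over NTC cells. Those of Dppa2 were -0.58 and 0.87, and its highest value was in the shGldc library. Dppa4 and L1td1 also kept the most even ratio to each other of all 15 pairs, from 1.47 to 1.89.

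**Figure D3:**
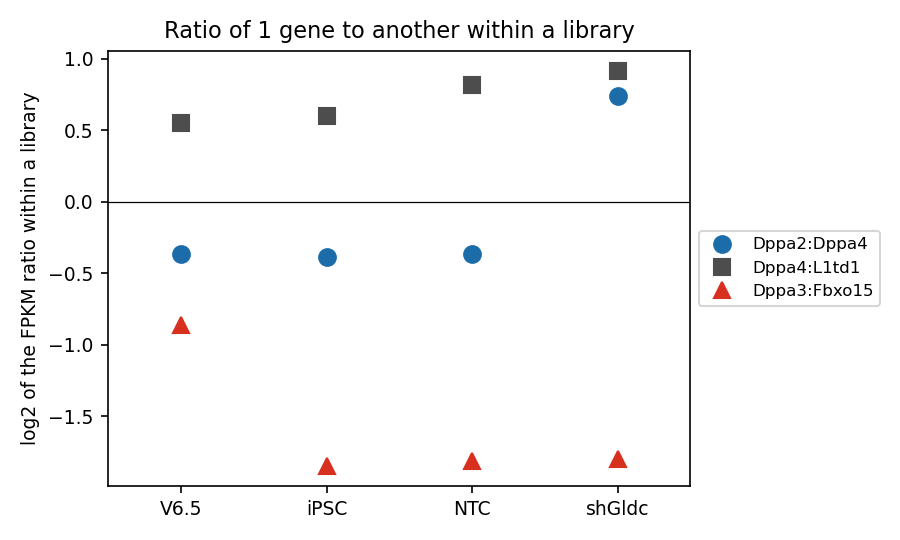
The log2 of the FPKM ratio of 1 gene to another within each of the 4 pluripotent libraries, for the 3 most even of the 15 pairs. Dppa2:Dppa4 is level in V6.5 cells, iPSCs, and NTC cells and higher in shGldc cells, whereas Dppa3:Fbxo15 is level in iPSCs, NTC cells, and shGldc cells and higher in V6.5 cells.

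The genes with the most similar patterns were sought among 13656 genes by the root mean square difference of log2(FPKM + 0.1) over the 5 libraries, after each gene was centred on its own mean. The closest match of any member was that of L1td1 with Ooep, an oocyte KH domain gene that lies 7932 bp from Dppa5a, at a difference of 0.05. Ooep was at 0.0674 FPKM in MEFs, 81.3 in mESCs, 55.3 in iPSCs, 62.3 in NTC cells, and 51.9 in shGldc cells. Dppa4 was closest to L1td1 (0.23), followed by Ooep (0.25) and Cdh1 (0.26), the epithelial cadherin. Fbxo15 was closest to Mreg (0.24) and Sox15 (0.30), and Dppa3 to Wfdc2 (0.25), Sox15 (0.44), and Fbxo15 (0.48). Wfdc2 was at 0.374 in MEFs, 179.9 in mESCs, 59.6 in iPSCs, 46.2 in NTC cells, and 63.4 in shGldc cells. Dppa2 had no match closer than 0.42, which was Zfp42, and Dppa5a none closer than 0.44, which was Utf1. These distances describe 5 libraries from 2 tables, most of whose variation lies between MEFs and the rest.

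Genes of the 2-cell embryo, to which Dppa2 and Dppa4 are linked, reached at most 13.2 FPKM, the value of Zscan4f in shGldc cells. All 15 that were detected had their highest value in the shGldc library. The FPKM of the 16 listed genes summed to 0.164 in MEFs, 33.4 in mESCs, 14.1 in iPSCs, 5.26 in NTC cells, and 75.1 in shGldc cells. Zscan4c was listed at 0 in MEFs and was at 4.13 in mESCs, 1.21 in iPSCs, 0.694 in NTC cells, and 9.71 in shGldc cells. Dux, the transcription factor that starts this program, was at 0.722 in mESCs, 0.702 in iPSCs, 0.152 in NTC cells, and 0.902 in shGldc cells. The remaining 1 of the 16 genes, Gm4340, was listed at 0 in all 5 libraries. In NTC cells, 14 were lower than in mESCs. The Zscan4 and Usp17l genes are near-identical copies that share reads, so their values are not independent of one another. The library order of the sum, with shGldc highest and NTC lowest among pluripotent cells, was shared by no single member, since Dppa2 was lowest in iPSCs and the other 5 genes were highest in mESCs.

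Genes tied to the biochemistry of Dppa3 were also examined. Of 11 DNA methylation genes, 9 had a lower value in shGldc than in NTC cells, and 2, Tdg and Tet3, a higher one, with a median log2 ratio of -0.30. Uhrf1 was at 22.1 in MEFs, 134.5 in mESCs, 98.1 in iPSCs, 193.2 in NTC cells, and 157.9 in shGldc cells. Of the pluripotent libraries, iPSCs had the lowest value of Uhrf1 and NTC cells the highest, whereas Dppa3 was highest in mESCs and lowest in NTC cells. Tet1, a methylcytosine oxidase, was at 7.71 in mESCs, 6.86 in NTC cells, and 2.96 in shGldc cells. For L1td1, the 9 genes of the Lin28 pathway that were listed lay at a median of -0.23 for the same ratio, and Lin28a itself was at 74.3 FPKM with the NTC and 55.2 FPKM with the Gldc shRNA. For Dppa5a, 3 of 9 KH domain and oocyte complex genes reached an FPKM of 1 in NTC or shGldc cells, with Khdc3 at 51.9 and 31.8 in these libraries and Tle6 at 11.6 and 26.9. The 11 naive pluripotency genes had a median of -0.51, from Tcl1 at -2.11 to Tbx3 at 0.19, and the 14 housekeeping genes one of 0.04, beside 0.54 for the 6 members and 0.04 for all genes.

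**Figure D4:**
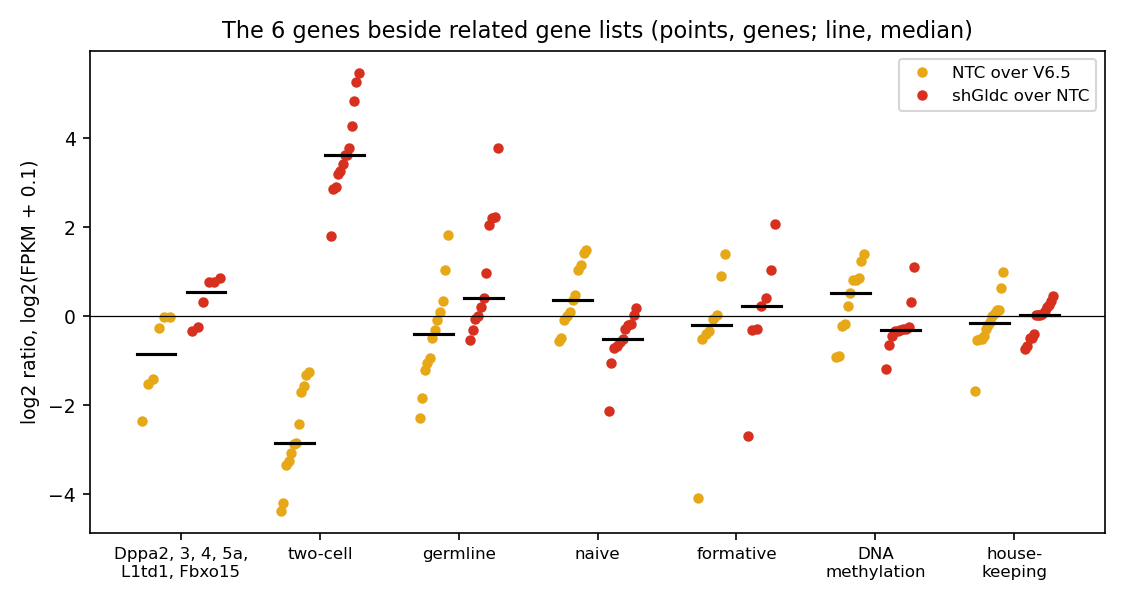
Differences of log2(FPKM + 0.1) for NTC over V6.5 cells (yellow, across tables) and shGldc over NTC (red) in the 6 genes and in gene lists; each point is a gene that reached an FPKM of 1 in either library and each line a median. The comparisons share the NTC library. The 2-cell genes have the medians furthest from 0, at -2.85 and 3.63, after a filter that such low genes pass mainly through their higher library, and the 6 genes have medians of -0.84 and 0.54.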

How the data were processed

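The authors mapped RNA-seq reads to mm10 with TopHat2 (2.1.0), assembled transcripts with StringTie (1.3.4d), and computed expression with Ballgown, per the paper and the submitters' processing notes, which also name SAMtools (1.7) and mm9 without a role. The gene annotation, strand setting, and filters are not given in the sources used here. The deposited values are FPKM, in 2 tables made separately, and all 5 columns were mapped to a sample. The 6 genes and all gene lists were chosen with earlier results of these data known.

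Log2 ratios were computed with a pseudocount of 0.1 among genes that reached 1 FPKM in one or both libraries, and a 2-fold difference was called. No replicates existed and no test was run. Depth was estimated from the spacing of low FPKM values times transcript length over 5723 genes with 1 annotated transcript, searched between steps of 0.02 and 0.1 with a tolerance of 1%. The best step held 89 of 911 low values in MEFs, against a median of 7 for other steps. In every library a step about 2 times larger or smaller was next best. The best and next-best steps held 89 and 53 values in MEFs, 93 and 53 in mESCs, 114 and 65 in iPSCs, 31 and 21 in NTC cells, and 29 and 25 in shGldc cells. Depths are thus uncertain by a factor of 2, and counting errors, taken at the best step for MEFs, mESCs, and iPSCs and at the lower of both depths for NTC and shGldc cells, cover counting alone. Positions, transcripts, and 50-nt stretches came from GENCODE M21 (GRCm38, the same build as mm10), and promoters from RefSeq. Genes named are the 6 members, Gldc, the 3 most similar genes of each member (not all of them printed), nearest protein-coding neighbours, and the ends of lists; other list genes, copies, and Dppa1 were chosen after their values were seen. The ratio and depth steps were tested on simulated data. Alternatives were pseudocounts of 1 and 0.01, rescaling, centring, other FPKM minimums, a 1.5-fold call, and the untreated control. Python 3.11.15, numpy 2.4.6, pandas 2.3.3, and matplotlib 3.10.9 were used.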

Additional observations from a re-analysis of the deposited data

How the results depend on the processing

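Ratios to MEFs depended on the pseudocount, since 5 of the 6 genes were near or at 0 there. With a pseudocount of 1, the median log2 ratio of the 6 genes was 6.33 in mESCs and 5.62 in iPSCs, and with 0.01 it was 10.92 and 10.18, with 6 of 6 genes still called higher. For shGldc over NTC, a call at 1.5-fold made 3 genes higher in place of 0, where 17.5% of all genes were then called higher. The same call made 3 genes lower in place of 2 for iPSCs over mESCs, where 16.8% of all genes were called lower. When the untreated library replaced the NTC, 2 genes were called lower, beside 13.9% of 12237 genes, and the median was -0.62 in place of 0.54, beside -0.02 for all genes. Under the other alternatives the counts between pluripotent libraries did not move, and the medians moved by less than 0.59, the robust SD of the NTC over V6.5 ratios. Every member was at 11.7 FPKM or more in each pluripotent library. The FPKM minimums therefore could not change these counts, and the pseudocounts could change the ratios only slightly. An alternative chosen after seeing the data, the shortest coding transcript for the floor of 3 fragments, lowered the medians over MEFs from 10.52 to 9.52 in mESCs and from 9.75 to 8.71 in iPSCs. No paired analysis was possible because each condition was a single library. Without replicates, differences of the size seen between untreated and NTC cells cannot be told apart from variation between libraries.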

Other observations

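Germline genes that are methylated in somatic cells differed from the 6 genes in their order across libraries. The FPKM of the 18 listed genes summed to 1.08 in MEFs, 116.6 in mESCs, 347.7 in iPSCs, 185.3 in NTC cells, and 247.3 in shGldc cells, so that iPSCs were highest, whereas all 6 members were lower in iPSCs than in mESCs. Rpl10l and Tuba3a, at 112.6 and 49.5 FPKM, carried most of the NTC sum, and 12 of the 18 genes were lower in NTC cells than in mESCs although the sum was higher. Taf7l, a germ cell subunit of the transcription machinery, was at 1.31 in mESCs, 32.0 in iPSCs, 0.299 in NTC cells, and 5.44 in shGldc cells. Dazl, a germ cell RNA-binding protein, was at 3.41 in mESCs, 10.3 in iPSCs, 3.66 in NTC cells, and 15.5 in shGldc cells. Both had a higher value in shGldc than in NTC cells, but the list as a whole did not go one way, with 9 of the 18 genes higher, 8 lower, and 1 equal.

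Of 8 genes of the formative state, through which cells leave naive pluripotency, 1 was called higher and 1 lower in NTC cells over mESCs, where 4.99% of all genes were called higher and 10.3% lower. Their median log2 ratio was -0.19, beside -0.06 for all genes. Dnmt3b, a DNA methyltransferase, was at 24.5 FPKM in mESCs and 65.0 FPKM in NTC cells. Otx2, the gene called lower, was at 11.5 in mESCs, 0.304 in iPSCs, 0.592 in NTC cells, and 0.549 in shGldc cells. Like Dppa3, it was therefore higher in the untreated V6.5 library than in the other 3 pluripotent libraries. For iPSCs over mESCs, 5 of 8 formative genes were called lower and none higher, at a median log2 ratio of -1.75. Of all genes, 7.44% were called lower and 10.1% higher in that comparison. Dppa1, a gene of the same name but not among the 6, was listed at 0 in 4 libraries and at 0.238 in shGldc cells.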
